A study of Homo sapiens with 6 samples.

Results

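The genes described here serve protein folding, quality control and export in the endoplasmic reticulum (ER), and they are followed in MDA-MB-231 cells given an siRNA against ERBBride, in a study whose title concerns EGFR stability and a long non-coding RNA. They comprise 40 genes, out of 20042 in the count table, listed by name for their roles and with earlier results of these data known: sensors and transcription factors of the unfolded protein response (8 genes), lumenal chaperones (5), the lectin chaperone cycle (3), disulfide enzymes (7), ER-associated degradation or ERAD (11), the translocon (2) and the COPII vesicle coat (4). All 40 were found in the table by Ensembl identifier, and 39 had enough counts to be tested. The exception was DERL3.

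The ER is where secreted and membrane proteins, including receptor tyrosine kinases such as EGFR, enter the secretory pathway through the translocon, are folded by chaperones and disulfide enzymes, and leave in COPII vesicles. Chains that do not fold are drawn back to the cytosol and degraded by ERAD. When unfolded chains accumulate, the sensors IRE1, ATF6 and PERK start the unfolded protein response: IRE1 splices the XBP1 mRNA, proteases of the Golgi release an active fragment of ATF6, and both factors raise transcription of chaperone and ERAD genes.

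MDA-MB-231 is an established human cell line from a triple-negative breast cancer. Cultures received either a control siRNA (siCTRL; genotype labelled WT) or the siRNA named siRNA-1 (genotype labelled ERBBride knock down), with 3 replicates each that the labels call biological, and libraries were made from total RNA. How replicates were separated is not stated, and the p-values measure the spread between these samples, which may be technical. Only 1 siRNA sequence was used, and effects of losing its target cannot be told apart from other effects of that sequence. No row of the table is named ERBBride, and its level was not analysed here. The values are RNA levels of whole cultures, in which fewer expressing cells and less RNA per cell cannot be told apart, and they say nothing of protein or of XBP1 splicing.

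Libraries held 12813706 to 15014434 counts, and levels are given in counts-per-million (CPM) of the scaled library. The floor of 3 counts equals 0.234 CPM in the smallest library and covers counting error only. Of the markers of this line, VIM (2652 ± 77.9 CPM), CD44 (1423 ± 143 CPM) and ZEB1 (89.7 ± 14.2 CPM) were present in siCTRL, and SPARC was near 0 (0.418 ± 0.0665 CPM). VIM (to 1676 ± 28.9 CPM) and CD44 (to 851 ± 20.0 CPM) fell with siRNA-1. ZEB1 (76.7 ± 7.81 CPM) did not pass, and SPARC rose to a level that was still low (0.839 ± 0.166 CPM). The summed level of these 4 markers, nearly all of it VIM and CD44, was 1.599-fold lower. Of markers of luminal cells, PGR had 0 counts and ESR1 0 to 3 counts in every library, while GATA3 (11.2 ± 1.596 to 4.398 ± 0.515 CPM) and CDH1 (2.24 ± 0.768 to 0.5005 ± 0.0895 CPM) were detected at low levels and fell. CD3E and CDH5, markers of blood and endothelial cells, had 0 counts throughout, PTPRC had 2 to 13 counts, and the low levels of CD14 (17.3 to 7.71 CPM) and PECAM1 (7.46 to 4.11 CPM) fell with siRNA-1. The part of these marker changes in the results was not tested. The library siCTRL 2 stood apart from the other controls along the second principal component (at -22.3, the other libraries between -2.90 and 13.3). The 39 tested members lay lower in siCTRL 2 than in the mean of the other controls by a median of 0.17 on the log2 scale (median difference -0.17), against a median difference of 0.00042 over all genes tested. Results that rest on siCTRL 2 are therefore given with and without it, and its part in them beyond those values was not tested. Fits without it rest on siCTRL 1 and siCTRL 3 as the only controls, which lay closer together. Smaller p-values from those fits are therefore not stronger evidence than the test with all libraries.

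Among the 39 tested members, 13 rose, 11 fell and 15 did not pass the test in siRNA-1 cells (edgeR quasi-likelihood test, Benjamini-Hochberg adjusted p under 0.05 over 12440 genes). Over all genes tested 62.5% changed, 31.5% upwards and 31% downwards, so the share of members that changed is close to the background. The median log2 fold change of the members was -0.03, and that of all genes tested was 0.01. The median absolute log2 fold change was 0.28 for members and 0.35 for all genes. HSPA5, HYOU1, ERO1A, ERO1B, CRELD2 and EDEM1 fell, while the coat genes SEC24D, SEC24A and SEC23B and the ERAD genes SYVN1, SELENOS and EDEM3 rose. Without siCTRL 2, 13 members rose and 18 fell, where 34.5% of all genes tested rose and 34.3% fell.

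**Figure D1:**
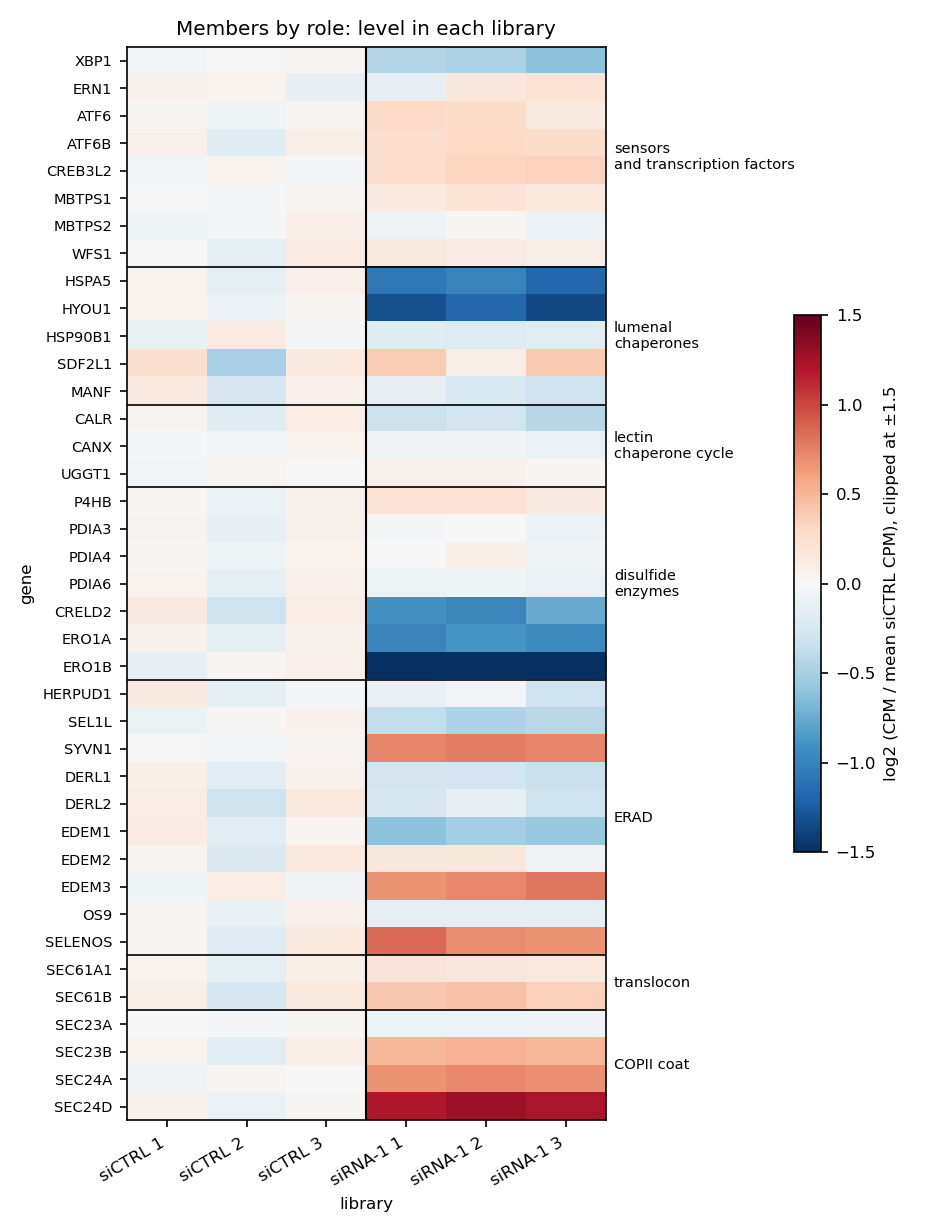
Level of the 39 tested members in each of the 6 libraries (columns), as log2 of the CPM over the mean siCTRL CPM, with genes (rows) grouped by role and colours clipped at ±1.5. HSPA5, HYOU1, ERO1A, ERO1B and CRELD2 are blue and SEC24D, SEC24A, SYVN1, EDEM3 and SELENOS red in all 3 siRNA-1 libraries, and siCTRL 2 is paler or bluer than the other controls in many rows.

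As a share of all counts, the 40 members together made up 1.34% ± 0.0408 of a control library and 1.24% ± 0.0194 of an siRNA-1 library (mean ± SD of 3). The lumenal chaperones went from 0.351% ± 0.00392 to 0.238% ± 0.00191 of counts, and their summed level was 1.51-fold lower in siRNA-1 cells. Most of this fall came from HSPA5 and HYOU1, while MANF and SDF2L1 did not pass. The coat genes went the other way, from 0.0423% ± 0.00119 to 0.0640% ± 0.000774, a summed level 1.48-fold higher. Most of this rise came from SEC24D, and SEC23A did not pass. For both of these sums the libraries of the groups did not overlap. The disulfide enzymes (0.270% ± 0.0122 and 0.276% ± 0.00672) and ERAD genes (0.114% ± 0.00505 and 0.113% ± 0.000843) had sums that overlapped between the groups, although each set held genes that rose and genes that fell. These sums are descriptions without a test.

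Because many genes of the unfolded protein response share a promoter element, the sequence upstream of the members is shown first. The ER stress response element (ERSE) reads CCAAT, then 9 bases of any kind, then CCACG, and is known to be bound by NF-Y and ATF6, and by XBP1. A shorter form, ERSE-II, reads ATTGG, 1 base of any kind, and CCACG. Both strands of the 250 bases before each RefSeq gene start (GRCh38.p14) were searched, 45 such windows for 36 members. DERL1, DERL3, PDIA3 and SEC24D had no window. Matches are in capitals below, with the sequence running 5′ to 3′ on the gene's strand up to the base before the start. In HYOU1, the first run of capitals also holds a TGACGTG, the core of the XBP1 element, which overlaps an ERSE-II on the other strand. The same 7 bases occur upstream of SEC24A, which rose, so that 2 of 36 members hold them, against 2.8% of the tested genes with a window.
XBP1, chr22:28800570-28800626: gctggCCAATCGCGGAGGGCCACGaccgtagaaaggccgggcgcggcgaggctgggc
HSPA5, chr9:125241344-125241414: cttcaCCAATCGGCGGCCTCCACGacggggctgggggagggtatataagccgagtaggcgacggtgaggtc
HYOU1, chr11:119057206-119057398: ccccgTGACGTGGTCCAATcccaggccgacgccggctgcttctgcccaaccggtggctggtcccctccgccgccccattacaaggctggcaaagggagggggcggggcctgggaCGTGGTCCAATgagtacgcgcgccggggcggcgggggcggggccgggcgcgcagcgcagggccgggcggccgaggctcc

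These stretches are shown because XBP1 carries its ERSE 52 bases upstream of the start, HSPA5 carries it 66 bases upstream, and HYOU1 has ERSE-II matches 185 and 79 bases upstream, and all 3 genes fell. The other ERSE matches, shown as the element reads in 4 more members that fell and in 2 that did not pass, lie at chr19:12938384-12938402 (CALR), chr22:49918554-49918572 (CRELD2), chr1:236282183-236282201 (ERO1B), chr12:103930216-103930234 and chr12:103930321-103930339 (HSP90B1), chr5:179698778-179698796 (CANX) and chr2:10812853-10812871 (PDIA6). A match that starts with CGTGG lies on the strand opposite to the gene.
CALR: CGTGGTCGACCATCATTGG
CRELD2: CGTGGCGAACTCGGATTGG
ERO1B: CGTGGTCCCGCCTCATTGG
HSP90B1, first: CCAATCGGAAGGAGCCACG
HSP90B1, second: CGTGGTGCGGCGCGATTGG
CANX: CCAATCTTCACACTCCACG
PDIA6: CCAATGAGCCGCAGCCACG

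HERPUD1 and SDF2L1 carried an ERSE-II. In all, 11 of 36 members had an ERSE or ERSE-II (30.6%), against 0.296% of the 10135 tested genes with a window and 0.125% of all 35116 windows. The members include textbook targets of this element, so their high share is a property of the choice. The split of the matches over the calls is a description, with no test. Of 10 members with a window that fell, 7 carried a match (XBP1, HSPA5, HYOU1, HSP90B1, CALR, CRELD2 and ERO1B). Of 14 that did not pass, 4 did (CANX, PDIA6, HERPUD1 and SDF2L1), and of 12 that rose, 0 did. SDF2L1, with a match and a log2 fold change of 0.29, did pass as a rise under 1 alternative fit, so the 0 depends on the fit. The median log2 fold change was -0.34 over the 11 members with a match and 0.13 over the 25 without. Without siCTRL 2, 10 of the 11 fell and SDF2L1 did not pass, while of the 25 without a match 6 fell and 12 rose. In that fit 18 of the 39 tested members and 34.3% of all genes tested fell.

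**Figure D2:**
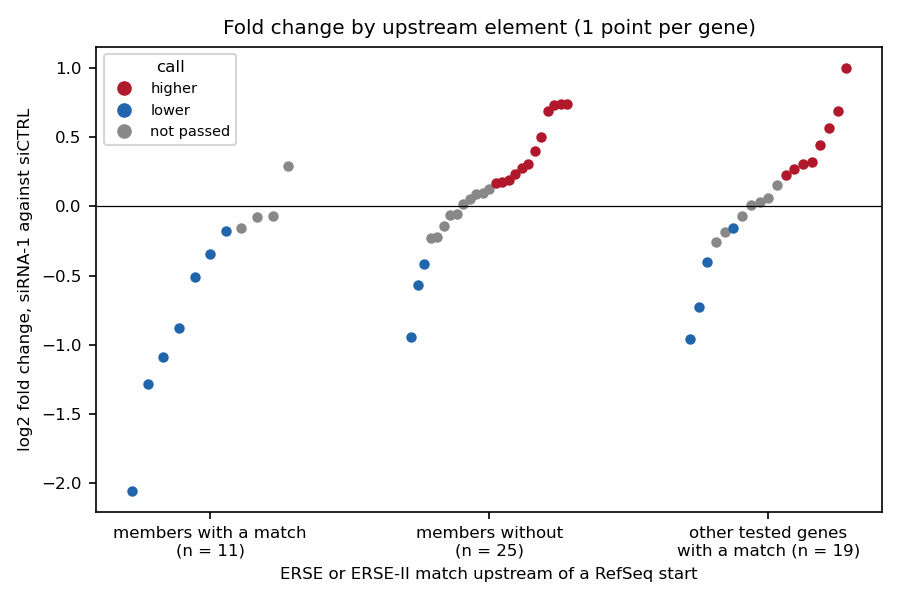
Log2 fold change (y axis) of each gene (points, coloured by call) in members with an ERSE or ERSE-II in a 250-base upstream window, members without one, and other tested genes with one. The 11 members with a match lie between -2.06 and 0.29, with 7 called lower and 4 not passed, while the 19 other genes with a match spread from -0.96 to 1.00.

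Outside the list the element did not go with one direction. Of 19 other tested genes with an ERSE or ERSE-II, 8 rose, 4 fell and 7 did not pass, with a median log2 fold change of 0.06. Without siCTRL 2 these counts were again 8, 4 and 7. Picked after the values were seen, FICD, which modifies the chaperone BiP by AMPylation, fell (log2 fold change -0.96), and SERP1, a protein of the translocon, rose (0.45). A match in these windows is a description of the letters and does not show binding.

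Among the 8 sensors and transcription factors no change reached 2-fold, and the only gene that fell was XBP1. XBP1 encodes the transcription factor that IRE1 activates by splicing. XBP1 stood at 179, 185 and 188 CPM in siCTRL 1 to 3 and 136, 132 and 120.0 CPM in siRNA-1 replicates 1 to 3. All siRNA-1 libraries lay below all controls, a fall of 1.42-fold (a log2 change of -0.51 with an SE of 0.0597, adjusted p = 1.55e-05, edgeR). ERN1, which encodes IRE1, did not pass: it measured 27.6, 27.2 and 24.1 CPM in siCTRL 1 to 3 and 24.2, 29.5 and 30.5 CPM in siRNA-1 replicates 1 to 3, and the groups overlapped (a log2 change of 0.10 with an SE of 0.102, adjusted p = 0.429).

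In the ATF6 branch 3 of 4 genes rose by small steps, where 31.5% of all genes tested rose. ATF6 measured 118, 112 and 121 CPM in siCTRL 1 to 3 and 142, 141 and 128 CPM in siRNA-1 replicates 1 to 3. The groups did not overlap, and ATF6 rose 1.17-fold (a log2 change of 0.23 with an SE of 0.0612, adjusted p = 0.00579). Its relative ATF6B rose 1.21-fold, from 169.5 ± 17.8 to 206 ± 2.93 CPM, with siCTRL 2 the lowest of the controls (149 CPM against 179 and 180.2). MBTPS1, the first of the proteases that cut ATF6 in the Golgi, rose 1.13-fold from 165 ± 4.53 to 186 ± 3.96 CPM (adjusted p = 0.0119), a call lost at a threshold of 0.01, without siCTRL 1 and without siRNA-1 replicate 2. MBTPS2, the protease that makes the following cut, went from 59.7 ± 3.73 to 57.6 ± 2.38 CPM and did not pass (log2 change -0.05, adjusted p = 0.520).

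CREB3L2, a membrane-bound factor of the OASIS family that the same proteases release and that is known to drive secretory genes, rose 1.24-fold from 137 ± 4.71 to 169.7 ± 5.90 CPM (a log2 change of 0.31 with an SE of 0.0546, adjusted p = 4.15e-04). WFS1, an ER membrane protein known to restrain ATF6, went from 57.7 ± 5.10 to 63.1 ± 1.31 CPM and did not pass (log2 change 0.13, adjusted p = 0.137).

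Among lumenal chaperones, the HSP70 of the ER and its large relative fell by more than a factor of 2, HSP90B1 fell slightly, and MANF and SDF2L1 did not pass. HSPA5 encodes BiP, the HSP70 chaperone that binds nascent chains and holds the sensors inactive. HSPA5 (chr9:125234853-125241330, minus strand, GRCh38) measured 1437, 1266 and 1459 CPM in siCTRL 1 to 3 and 658, 691 and 611 CPM in siRNA-1 replicates 1 to 3. The highest siRNA-1 library lay far below the lowest control, and the fall was 2.12-fold (a log2 change of -1.09 with an SE of 0.0670, adjusted p = 8.90e-08, edgeR). HYOU1 encodes the HSP110-type exchange factor of BiP. HYOU1 (chr11:119044189-119057202, minus strand) measured 489.7, 447 and 486 CPM in siCTRL 1 to 3 and 189.9, 209.9 and 185 CPM in siRNA-1 replicates 1 to 3. Again the groups were far apart, with a fall of 2.43-fold (a log2 change of -1.28 with an SE of 0.0632, adjusted p = 1.56e-08). Falls of at least 2-fold were made by 8.14% of all genes tested and by 3 members, HSPA5, HYOU1 and ERO1B.

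HSP90B1, the HSP90 chaperone of the ER (GRP94), measured 1456, 1709 and 1549 CPM in siCTRL 1 to 3 and 1384, 1370.1 and 1405 CPM in siRNA-1 replicates 1 to 3. It fell 1.13-fold (a log2 change of -0.18 with an SE of 0.0603, adjusted p = 0.0206), and siCTRL 2 was here the highest library. This small fall lost its call at a threshold of 0.01, with scaling by library size alone, and without any 1 of the siRNA-1 libraries. Without siCTRL 2 it passed, at a log2 change of -0.13 (adjusted p = 0.00375). MANF, a secreted ER protein that binds BiP, had 118, 89.4 and 113 CPM in siCTRL 1 to 3 and 97.7, 90.7 and 85.7 CPM in siRNA-1 replicates 1 to 3 and just missed the threshold (a log2 change of -0.22 with an SE of 0.0936, adjusted p = 0.0543). It passed, as a fall, under 4 alternatives that keep all libraries, DESeq2's Wald test among them. Its lowest control was siCTRL 2, and without that library MANF fell (log2 change -0.35, adjusted p = 1.40e-08). SDF2L1, a partner of the ER cochaperones, measured 22.1, 13.4 and 20.7 CPM in siCTRL 1 to 3 and 24.4, 20.0 and 24.7 CPM in siRNA-1 replicates 1 to 3. It varied most among the controls, with siCTRL 2 the lowest, and did not pass with it (a log2 change of 0.29 with an SE of 0.158, adjusted p = 0.128) or without it (log2 change 0.09, adjusted p = 0.411), although it passed as a rise under 1 other alternative.

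**Figure D3:**
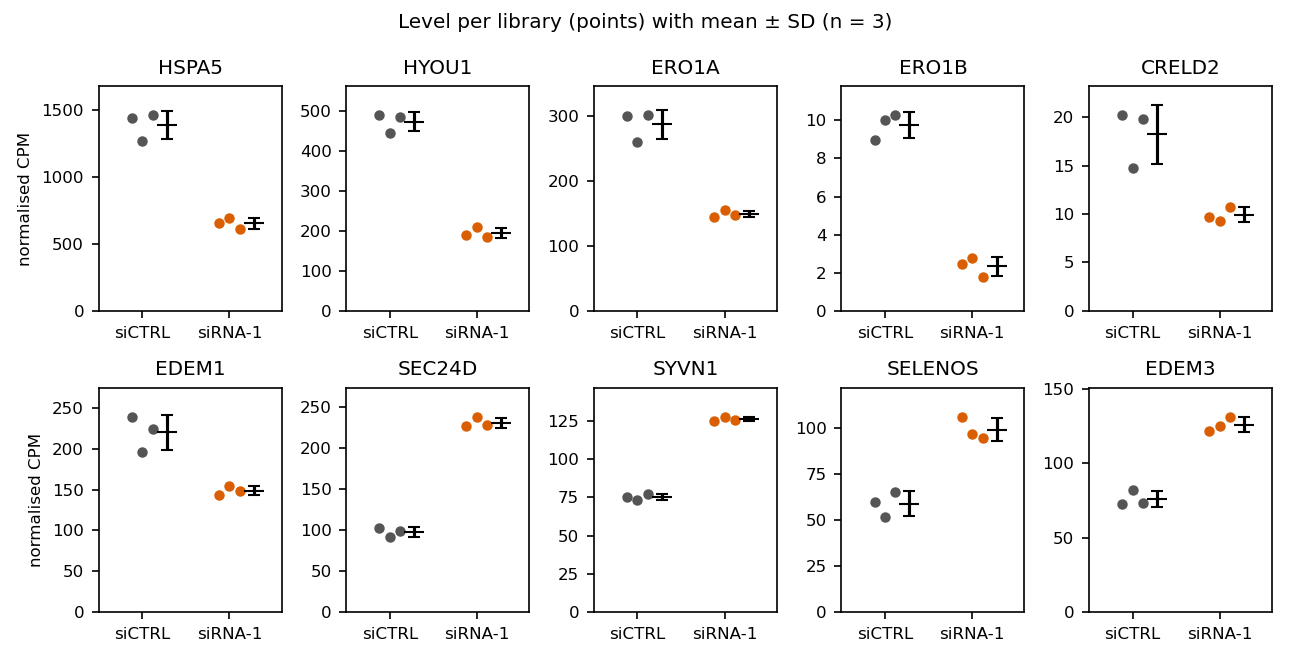
Normalised CPM (y axes from 0) of 10 members in each library (points; siCTRL grey, siRNA-1 orange) with the mean ± SD of 3 libraries (black). In each panel the groups are separate: HSPA5, HYOU1, ERO1A, ERO1B, CRELD2 and EDEM1 are lower and SEC24D, SYVN1, SELENOS and EDEM3 higher in siRNA-1 cells.

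Set per exonic length, as CPM per kilobase of exon (RPKM), the fall moved HSPA5 down the order of the members. In siCTRL the highest levels per length were CALR (730.2 ± 78.4 RPKM), HSPA5 (355 ± 27.1), CANX (353 ± 11.5) and HSP90B1 (335 ± 27.3), of which the last 3 overlapped in range. In siRNA-1 cells CALR (575 ± 27.5 RPKM) was followed by CANX (337 ± 6.06), HSP90B1 (295 ± 3.73), P4HB (255 ± 8.25) and HSPA5 (167 ± 10.3). The ranges of these 5 did not overlap in siRNA-1 cells. HYOU1 went from position 10 to position 18 of the 39.

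In the lectin cycle, which holds glycoproteins while they fold, 1 of 3 members fell, where 31% of all genes tested fell. CALR (calreticulin, the soluble lectin) measured 2056, 1742 and 2148 CPM in siCTRL 1 to 3 and 1582, 1624 and 1479 CPM in siRNA-1 replicates 1 to 3 and fell 1.27-fold (a log2 change of -0.34 with an SE of 0.0736, adjusted p = 0.00155). The siRNA-1 libraries were all below the controls, of which siCTRL 2 was lowest. CANX (calnexin, the lectin of the ER membrane) went from 2199.7 ± 71.5 to 2101 ± 37.7 CPM and did not pass (log2 change -0.07, adjusted p = 0.252), although its groups did not overlap, as was the case for 67.6% of all genes tested. Without siCTRL 2 it fell (log2 change -0.10, adjusted p = 0.0273). UGGT1, the glucosyltransferase that returns unfolded glycoproteins to these lectins, measured 163 ± 4.38 to 169 ± 1.75 CPM and did not pass (adjusted p = 0.404).

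Of the disulfide enzymes, both oxidases and CRELD2 fell, PDI itself rose slightly, and 3 other isomerases did not pass. ERO1A and ERO1B encode the oxidases that recharge protein disulfide isomerase (PDI). ERO1A measured 300.3, 261 and 302 CPM in siCTRL 1 to 3 and 145, 155 and 148 CPM in siRNA-1 replicates 1 to 3. It fell 1.93-fold with groups far apart (a log2 change of -0.95 with an SE of 0.0652, adjusted p = 2.17e-07). ERO1B (chr1:236215555-236281985, minus strand) is the rarer form, with 129 to 138 counts per control library and 26 to 42 per siRNA-1 library. It measured 8.96, 10.02 and 10.3 CPM in siCTRL 1 to 3 and 2.44, 2.78 and 1.77 CPM in siRNA-1 replicates 1 to 3. This was the largest fall among the members, 4.16-fold (a log2 change of -2.06 with an SE of 0.177, adjusted p = 1.28e-06), and ERO1B had the lowest level per length of the 39 in both groups.

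CRELD2, an ER protein with PDI-like activity, measured 20.2, 14.8 and 19.8 CPM in siCTRL 1 to 3 and 9.71, 9.27 and 10.8 CPM in siRNA-1 replicates 1 to 3. It fell 1.84-fold (a log2 change of -0.88 with an SE of 0.133, adjusted p = 1.17e-04), and the fall was larger without siCTRL 2, its lowest control (log2 fold change -1.03). P4HB, which encodes PDI itself, rose 1.14-fold from 1184 ± 68.8 to 1350.0 ± 43.8 CPM (adjusted p = 0.0109, a call lost at a threshold of 0.01). PDIA4 (ERp72) measured 467 ± 17.8 to 472 ± 22.4 CPM (log2 fold change 0.02, adjusted p = 0.817) and did not pass under any setting. PDIA3 (ERp57, the isomerase that works with the lectins; log2 fold change -0.03, adjusted p = 0.681) and PDIA6 (P5; -0.08, adjusted p = 0.281) did not pass with all libraries. Without siCTRL 2, PDIA3 (log2 change -0.10, adjusted p = 0.0208) and PDIA6 (log2 change -0.15, adjusted p = 7.31e-04) fell slightly. Exons of genes on the opposite strand cover 18.9% of the exonic bases of PDIA3 and 25.2% of those of PDIA6, and PDIA3 has annotated pseudogenes, and without a stated strand setting reads of such exons cannot be assigned firmly.

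Of 10 ERAD genes tested, 3 rose, 3 fell and 4 did not pass, where 31.5% of all genes tested rose and 31% fell. Without siCTRL 2, 3 rose and 6 fell, where 34.5% of all genes rose and 34.3% fell. The rises were in the ubiquitin ligase, an extraction factor and a mannosidase. SYVN1 encodes HRD1, the central ubiquitin ligase of ERAD, and measured 75.0, 73.3 and 77.1 CPM in siCTRL 1 to 3 and 125, 127 and 125 CPM in siRNA-1 replicates 1 to 3. Replicates lay close together and the rise was 1.67-fold (a log2 change of 0.74 with an SE of 0.0537, adjusted p = 3.12e-07). Genes transcribed on the same strand share 8.39% of its exonic bases. SEL1L, which encodes the partner that steadies HRD1, measured 191, 207 and 214 CPM in siCTRL 1 to 3 and 158, 147 and 153 CPM in siRNA-1 replicates 1 to 3. It moved in the opposite direction, falling 1.33-fold (a log2 change of -0.42 with an SE of 0.0587, adjusted p = 6.72e-05). SELENOS encodes a selenoprotein that links the ERAD channel to the p97 ATPase, and measured 60.1, 51.8 and 65.3 CPM in siCTRL 1 to 3 and 106, 96.6 and 94.4 CPM in siRNA-1 replicates 1 to 3. It rose 1.68-fold (a log2 change of 0.74 with an SE of 0.0830, adjusted p = 1.02e-05).

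The EDEM mannosidases, which trim glycans of misfolded proteins and so commit them to ERAD, went apart. EDEM1 measured 239, 196 and 224 CPM in siCTRL 1 to 3 and 143, 154 and 148 CPM in siRNA-1 replicates 1 to 3 and fell 1.48-fold (a log2 change of -0.57 with an SE of 0.0714, adjusted p = 2.76e-05). EDEM3 measured 72.3, 82.0 and 73.0 CPM in siCTRL 1 to 3 and 121, 125 and 131 CPM in siRNA-1 replicates 1 to 3 and rose 1.66-fold (a log2 change of 0.73 with an SE of 0.0649, adjusted p = 1.67e-06). Neither pair of groups overlapped. EDEM2 went from 45.7 ± 5.84 to 48.9 ± 4.18 CPM and did not pass (log2 change 0.09, adjusted p = 0.416, and log2 change -0.02, adjusted p = 0.851 without siCTRL 2).

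DERL1, a rhomboid-like protein of the ERAD channel, fell 1.23-fold from 132 ± 12.1 to 107 ± 2.11 CPM (a log2 change of -0.30 with an SE of 0.0689, adjusted p = 0.00266). DERL2, its relative, had 81.7, 61.2 and 84.4 CPM in siCTRL 1 to 3 and 63.8, 69.5 and 60.9 CPM in siRNA-1 replicates 1 to 3. It did not pass (a log2 change of -0.23 with an SE of 0.106, adjusted p = 0.0782), siCTRL 2 being as low as the siRNA-1 libraries, and fell without it (log2 change -0.37, adjusted p = 2.60e-08). The lectin OS9, which reads trimmed glycans (log2 fold change -0.14, adjusted p = 0.0547), and HERPUD1, a stress-induced scaffold of the ligase (-0.16, adjusted p = 0.138), did not pass. Without siCTRL 2 both fell, with log2 fold changes of -0.21 and -0.23. DERL3 had 2, 4 and 11 counts in the controls and 2, 1 and 1 in the siRNA-1 libraries. Its levels were near the limit of 3 counts, 77% of its exonic bases are shared with a gene on the opposite strand, and no fold change is given.

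Both translocon subunits rose, as did 31.5% of all genes tested. SEC61A1 encodes the channel itself and SEC61B a small subunit beside it. SEC61B measured 68.7, 53.7 and 71.2 CPM in siCTRL 1 to 3 and 85.6, 87.7 and 82.5 CPM in siRNA-1 replicates 1 to 3 and rose 1.32-fold (a log2 change of 0.40 with an SE of 0.0911, adjusted p = 0.00236). SEC61A1 rose 1.13-fold from 434 ± 37.8 to 490.5 ± 7.08 CPM (adjusted p = 0.0300). siCTRL 2 was the lowest control for both, and without it the rises were 0.27 and 0.09 on the log2 scale, with adjusted p = 1.57e-05 and 0.0414. The call of SEC61A1 was lost without siCTRL 1, without any 1 of the siRNA-1 libraries, among genes averaging at least 100 counts and at a threshold of 0.01.

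In the COPII coat 3 of 4 members rose, where 31.5% of all genes tested rose. SEC24 proteins form the inner coat that selects cargo. SEC24D (chr4:118722823-118838683, minus strand) measured 103, 91.6 and 99.5 CPM in siCTRL 1 to 3 and 226, 238 and 228 CPM in siRNA-1 replicates 1 to 3. Every siRNA-1 library had more than 2 times the highest control, and the rise of 2.35-fold (a log2 change of 1.23 with an SE of 0.0588, adjusted p = 1.20e-08) was the largest among the members and the only one of at least 2-fold, a size reached by 1.97% of all genes tested. SEC24A measured 42.6, 45.7 and 44.7 CPM in siCTRL 1 to 3 and 70.5, 73.3 and 71.3 CPM in siRNA-1 replicates 1 to 3. It rose 1.62-fold with little spread in either group (a log2 change of 0.69 with an SE of 0.0608, adjusted p = 1.51e-06).

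SEC23 proteins pair with SEC24 in the inner coat and activate its GTPase. SEC23B measured 126, 108 and 129.9 CPM in siCTRL 1 to 3 and 171, 174 and 171 CPM in siRNA-1 replicates 1 to 3 and rose 1.42-fold (a log2 change of 0.50 with an SE of 0.0693, adjusted p = 5.45e-05). SEC23A measured 166, 162 and 168 CPM in siCTRL 1 to 3 and 157, 158 and 159.9 CPM in siRNA-1 replicates 1 to 3. It lay slightly lower in all siRNA-1 libraries and did not pass (a log2 change of -0.06 with an SE of 0.0497, adjusted p = 0.295).

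**Figure D4:**
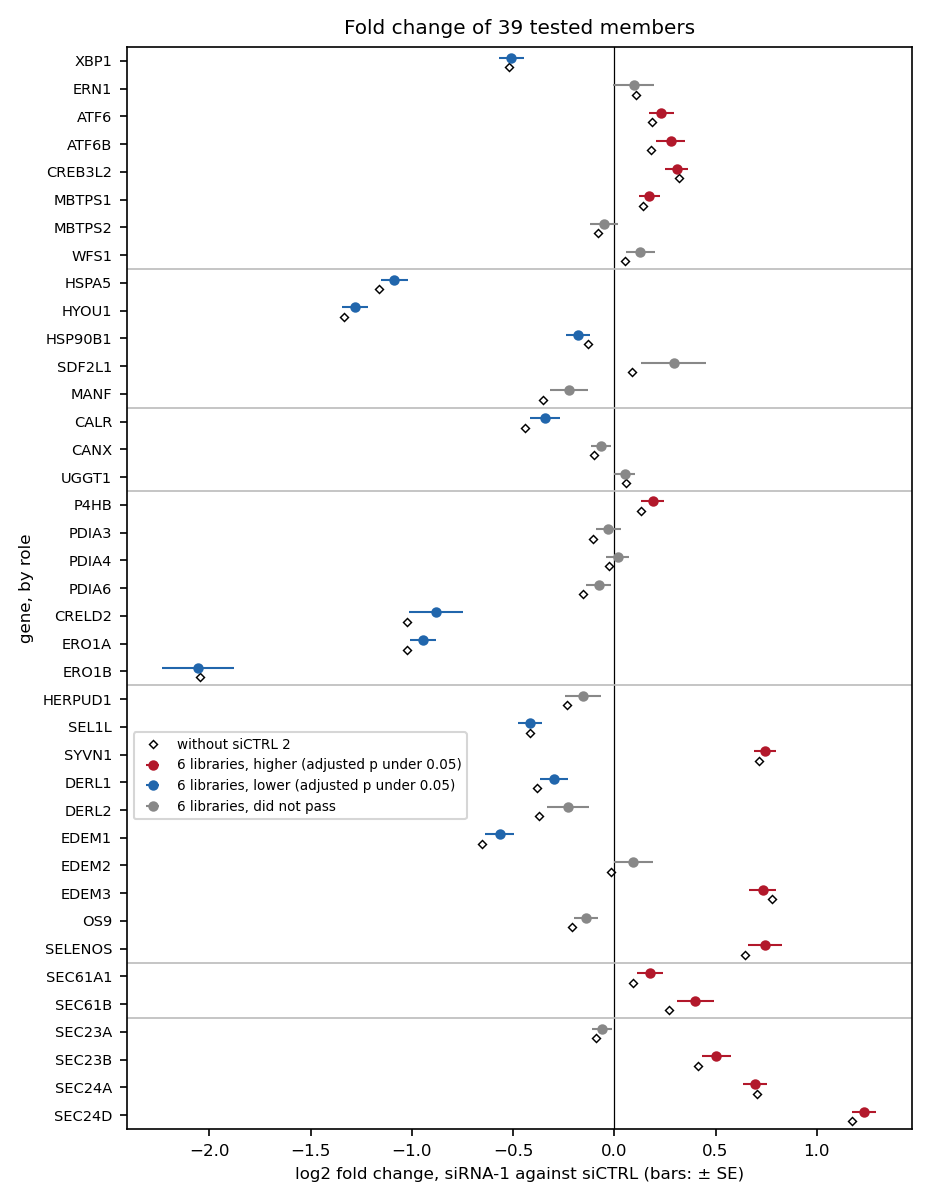
Log2 fold change of siRNA-1 against siCTRL (x axis) for the 39 tested members by role, with all 6 libraries (filled points, bars ± SE, coloured by call) and without siCTRL 2 (open diamonds). Without siCTRL 2 most points move left, and the 7 members that then pass (MANF, CANX, PDIA3, PDIA6, HERPUD1, DERL2 and OS9) all lie below 0.

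Without siCTRL 2, the 7 members MANF, CANX, PDIA3, PDIA6, HERPUD1, DERL2 and OS9 joined those that fell, and no member left either set. Their log2 changes without it lay between -0.37 (DERL2) and -0.10 (CANX). The members farthest from 0 moved little: ERO1B went from -2.06 to -2.05, HYOU1 from -1.28 to -1.34, and SEC24D from 1.23 to 1.17.

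The ratio of related genes within a library does not depend on the scaling of libraries, and was computed for 7 pairs, chosen after their values were seen, from counts per exonic length. The ratio of SEC24D to SEC24A was 1.61 ± 0.150 in the controls and 2.33 ± 0.0169 with siRNA-1 (mean ± SD of 3 libraries), and that of SEC23A to SEC23B fell from 0.673 ± 0.0585 to 0.452 ± 0.00638. ERO1A outweighed ERO1B 21.1 ± 2.64 to 1 in siCTRL and 47.0 ± 10.7 to 1 in siRNA-1 cells. In each of these pairs the groups did not overlap. EDEM1 to EDEM2 went from 1.37 ± 0.103 to 0.867 ± 0.0801, and EDEM1 to EDEM3 from 3.37 ± 0.546 to 1.36 ± 0.0617. For these 5 ratios the exact two-sided permutation test gave p = 0.1, the smallest that 3 against 3 libraries allow (0.14 after Benjamini-Hochberg adjustment over the 7), so that it cannot reach 0.05. ATF6 to ATF6B (0.318 ± 0.0226 and 0.307 ± 0.0190, exact p = 0.6) and DERL1 to DERL2 (1.58 ± 0.136 and 1.497 ± 0.0818, exact p = 0.5) overlapped between groups.

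**Figure D5:**
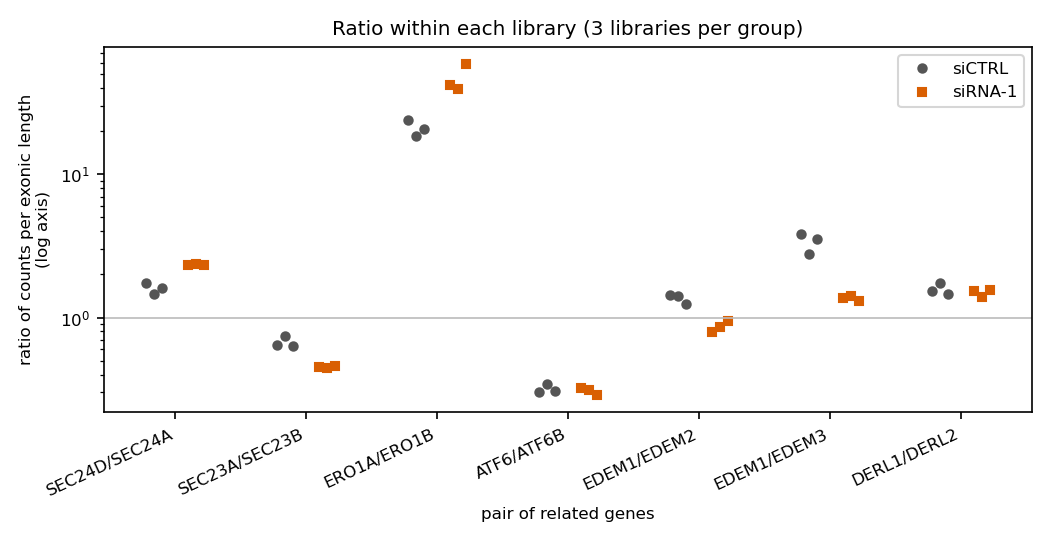
Ratio of counts per exonic length of 7 pairs of related genes (x axis) within each library (y axis, log scale; siCTRL circles, siRNA-1 squares, 3 each). The groups are separate for SEC24D/SEC24A, SEC23A/SEC23B, ERO1A/ERO1B, EDEM1/EDEM2 and EDEM1/EDEM3 and overlap for ATF6/ATF6B and DERL1/DERL2.

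Of other genes of the same compartment, in 10 lists, 135 were tested: 60 rose, 28 fell and 47 did not pass, with a median log2 fold change of 0.14, where 31.5% of all genes tested rose and 31% fell. Without siCTRL 2, 64 rose and 45 fell, with a median of 0.05, where 34.5% of all genes rose and 34.3% fell. Further COPII and ER exit genes were mixed (8 of 19 rose, 6 fell). The outer coat genes SEC31A (1.87-fold, from 310.1 ± 0.837 to 581 ± 10.2 CPM) and SEC13 (1.61-fold, from 123 ± 11.2 to 199 ± 4.15 CPM) rose. SEC31B (-0.86 on the log2 scale) and SEC16B (-0.73), both of low level, fell, the latter only with siCTRL 2 included. In the COPI coat, which returns proteins from the Golgi to the ER, 8 of 14 genes rose and 2 fell, and 4 fell without siCTRL 2. COPG1 rose 1.65-fold and COPE 1.53-fold, while COPZ1 fell 1.87-fold and KDELR3, a receptor that retrieves ER chaperones, fell 1.71-fold.

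Of 23 further genes of the translocon and of signal recognition, 13 rose and 1 fell. Over all genes tested 31.5% rose and 31% fell. SRPRB, a subunit of the receptor for the signal recognition particle, rose 1.69-fold, SSR2, of the translocon-associated complex, rose 1.37-fold, and SEC62 fell 1.146-fold. Of 11 tested subunits of the oligosaccharyltransferase, which adds glycans to entering chains, 7 rose and 0 fell (STT3A 1.37-fold, RPN2 1.32-fold). Of 12 other thiol oxidoreductases 6 rose and 0 fell, led by TXNDC5, whose level was below 1 CPM in siCTRL, and PDIA5 (1.76-fold). Without siCTRL 2, 4 genes of the translocon list, 3 of the oligosaccharyltransferase and 3 of the oxidoreductases fell, where 34.3% of all genes fell. siCTRL 2 lay lower than the other controls in all 3 lists, by medians of -0.10, -0.16 and -0.13 on the log2 scale.

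Cochaperones and further ERAD genes were divided. Over all genes tested 31.5% rose and 31% fell (34.5% and 34.3% without siCTRL 2). Of 14 tested ER cochaperones and isomerases, 4 rose and 4 fell (5 and 6 without siCTRL 2). DNAJB9 (ERdj4, a cochaperone of BiP that is a known XBP1 target) fell 1.93-fold from 58.0 ± 6.95 to 30.1 ± 1.89 CPM, and DNAJC10 fell 1.44-fold. SDF2, the relative of SDF2L1, rose 1.31-fold, and CNPY3 rose 1.20-fold. Of 22 further ERAD genes 10 rose and 7 fell (10 and 9 without siCTRL 2). ERLIN2 and ERLIN1, which form the erlin complex, fell 3.63-fold and 1.91-fold, and the deubiquitinase YOD1 rose 1.78-fold and TMUB1 1.58-fold. Of 8 genes of glycan trimming and lectins 2 rose and 3 fell (2 and 4 without siCTRL 2): the glucosidase genes MOGS (1.57-fold) and GANAB (1.23-fold) rose, and ERLEC1 (1.96-fold), a lectin of ERAD, and NGLY1 (1.57-fold) fell.

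In the PERK arm, the branch that slows translation, 2 of 8 genes rose and 2 fell, and without siCTRL 2, 4 rose and 3 fell. Over all genes tested 31.5% rose and 31% fell (34.5% and 34.3% without siCTRL 2). ATF4 fell 1.55-fold and DNAJC3, an inhibitor of PERK, fell 1.45-fold. PPP1R15B, which lifts the block by dephosphorylating eIF2, rose 1.58-fold, and EIF2S1, the eIF2 subunit that PERK phosphorylates, rose 1.30-fold. Among relatives of CREB3L2, 3 of 4 fell: CREB3L1 fell 3.09-fold from 58.9 ± 10.7 to 19.0 ± 1.08 CPM, and CREB3L3 fell from 0.826 ± 0.116 CPM, a level so low that no fold is given.

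The 7-base sequence GCTCACT is known from these same data as one that is frequent in the 3′ untranslated region (UTR) of genes that fell, and where it occurs in the members is given as a description only. In the longest annotated 3′ UTR of each gene (GENCODE 29), it was present in 29.4% of tested genes that fell, 11.3% of those that rose and 16.3% of those that did not pass. The mean length of these UTRs was 2334, 1920 and 1922 bases in the same order, and the part of length was not tested. Among members it was present in 3 of 11 that fell, 0 of 13 that rose and 3 of 15 that did not pass (ERN1, HERPUD1 and UGGT1). The 3 that fell are ERO1B, HYOU1 and ERO1A, and their share (27.3%) is close to the 29.4% of all tested genes that fell. HSPA5 had no match. Alu repeats are known to carry these 7 bases, and repeats were not annotated here. The sites below, 1 for each of these genes, have the 7 bases in capitals and come from chr1:236218371-236218399 (ERO1B), chr11:119045417-119045445 (HYOU1) and chr14:52641056-52641084 (ERO1A), all on the minus strand of GRCh38.
ERO1B: aaaatttaaatGCTCACTtgaatatttat
HYOU1: agggagggacaGCTCACTggttccttctg
ERO1A: tcttacattttGCTCACTcctgaaccacc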

How the data were processed

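Libraries of 6 samples were made from total RNA with a NEBNext Ultra kit, and the authors deposited 1 table of whole-number counts per Ensembl gene and library, with no normalization; HTSeq counting on build hg38 is named per the labels and the submitters' processing notes, which also list Trimmomatic, STAR and kallisto. Versions, annotation release and strand setting were not given in the sources used here. Genes were tested with edgeR 4.0.16 (R 4.3.3): TMM scaling, filterByExpr (minimum count 10, minimum total 15), quasi-likelihood F test of siRNA-1 against siCTRL without covariates, and Benjamini-Hochberg adjustment over all 12440 genes tested. CPM values use TMM-scaled library sizes, and lengths are merged GENCODE 29 exons (GRCh38). Each SE was derived from the test, as the absolute log2 change over the square root of its F statistic. Library totals were 12813706 to 15014434 counts. Alternatives were DESeq2 1.42.0 size factors and Wald test, library size scaling, 2 other filters, limma 3.58.1 (voom), a replicate block, a threshold of 0.01 and leaving out each library. Of each pathway list, at most the 2 largest rises and 2 largest falls among called genes were named. The members and lists were chosen with earlier results of these data known. The fit was also run on simulated data in which far fewer genes changed than here, so that run does not cover changes as wide as these.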

Additional observations from a re-analysis of the deposited data

How the results depend on the processing

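Of the 24 members that changed, 20 passed in the same direction under every alternative that tested them (ERO1B averages under 100 counts and left that filter), MBTPS1, HSP90B1, P4HB and SEC61A1 being the exceptions. The share of all changed genes that held in this way was not computed. Leaving out 1 library at a time gave 10 to 18 members lower and 22 to 45 pathway genes lower, the upper value in each case without siCTRL 2. Directions turned only for members that did not pass. PDIA3 (-0.0307 on the log2 scale) gave 0.0071 with scaling by library size, and between -0.105 and 0.0020 when a library was left out (0.0020 without siCTRL 3, 0.0017 without siRNA-1 replicate 3). PDIA4 (0.0157) gave -0.0213 among genes averaging at least 100 counts, and between -0.0282 (without siCTRL 2) and 0.0521 (-0.0161 without siRNA-1 replicate 2). EDEM2 (0.0937) ranged from -0.0154 without siCTRL 2 to 0.171. The cause was not tested. The median log2 fold change of the members ran from -0.080 to 0.0071, the upper value with scaling by library size, which moved the median of all genes to 0.043.

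Same-numbered libraries showed no shared deviation (correlations 0.067, -0.078 and -0.057), and the labels state no pairing. With 3 libraries per group, these values cannot exclude that replicates were handled in matched rounds. With the replicate number as a block, 14 members were higher and 12 lower, and 7535 genes changed, against 7772 without it. The members that gained a call with the block were SDF2L1, which carries an ERSE-II and rose (log2 fold change 0.31, adjusted p = 0.0285 in edgeR), and MANF, which fell (-0.22, adjusted p = 0.0407). Over all alternatives the adjusted p of SDF2L1 ran from 0.0285 to 0.411 and that of MANF from 1.40e-08 to 0.204. Genes of few counts are limited by depth: DERL3 could not be tested, and ERO1B rests on 26 to 42 counts per siRNA-1 library.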
